A study of Mus musculus with 12 samples.

Results

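The 10 genes described here are inhibitors of cyclin-dependent kinases and genes of the p53 response. They were chosen by name, and their Ensembl identifiers in the deposited table were matched to symbols of the GRCm38 annotation. All 10 of 10 were found among the 18911 genes of the table, all are protein-coding, and all passed the filter on low counts that left 17076 genes for testing. The kinase inhibitors are Cdkn1a and Cdkn1b of the Cip/Kip family and Cdkn2a, Cdkn2b, Cdkn2c and Cdkn2d of the INK4 family, and the p53 genes are Trp53, Mdm2, Ccng1 and Bax.

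RNA was sequenced from neural progenitor cells (NPCs) grown from the hippocampus of mouse pups at P0. Each of 4 genotypes gave 3 libraries: Nes-Cre+/- Kmt2a+/LSL, Nes-Cre+/- Kmt2a+/+, Kmt2a+/LSL and Kmt2a+/+. In Kmt2a+/LSL cells 1 copy of Kmt2a, which encodes a methyltransferase of histone H3 lysine 4, carries a stop cassette between loxP sites (LSL) within intron 1, which ends the transcript early, and nestin-Cre is meant to remove the cassette in nestin-expressing cells and so restore the allele. No cassette is present in Kmt2a+/+ cells or in Nes-Cre+/- Kmt2a+/+ cells, and the latter control for Cre itself. The LSL mice were made on C57BL/6J zygotes, the cells are heterozygous for the cassette, Cre was driven by the nestin promoter, and the labels do not say whether a library held 1 pup or several, nor whether libraries shared a litter. P-values therefore measure the spread between these libraries, and in bulk RNA fewer cells of a type and less RNA per cell cannot be told apart.

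Cyclin-dependent kinases drive cells through the division cycle, and 2 families of small proteins hold them back. Cip/Kip proteins (p21 from Cdkn1a, p27 from Cdkn1b) bind cyclin-kinase complexes, whereas INK4 proteins bind CDK4 and CDK6 and keep them from D-type cyclins. The Cdkn2a gene also yields ARF, which restrains the ubiquitin ligase MDM2 and so stabilizes p53. The transcription factor p53 in turn switches on Cdkn1a, Ccng1, Bax and Mdm2 itself, the last of which closes a feedback loop. Menin and KMT2A are known to bind the Cdkn1b and Cdkn2c genes in endocrine cells, and silencing of the INK4-ARF locus helps neural stem cells to keep dividing.

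p53 binds pairs of 10-base half-sites, each its own reverse complement, so that a search of 1 strand covers both. The promoter windows of all 10 genes (13 windows of 250 bases before and 50 after a start, from RefSeq on GRCm38.p6) were scored for the p53 response element over its 20 positions. The Cdkn1a window at the more upstream of the gene's 2 starts (chr17:29090729-29091028, plus strand) and the Ccng1 window (chr11:40755237-40755536, minus strand) each matched 19 positions with no spacer, as did 0.0883% of all 32851 promoter windows. The Bax window (chr7:45466849-45467148, minus strand) matched 19 positions with a spacer of 1 base, and 1.09% of all windows reached 19 with a spacer of 0 to 13 bases. These 3 sequences are shown because they hold the closest matches among the members, with the matched half-sites in capitals. A match is a description of letters and not a site of binding, and the other 10 windows matched 15 to 17 positions.
Cdkn1a: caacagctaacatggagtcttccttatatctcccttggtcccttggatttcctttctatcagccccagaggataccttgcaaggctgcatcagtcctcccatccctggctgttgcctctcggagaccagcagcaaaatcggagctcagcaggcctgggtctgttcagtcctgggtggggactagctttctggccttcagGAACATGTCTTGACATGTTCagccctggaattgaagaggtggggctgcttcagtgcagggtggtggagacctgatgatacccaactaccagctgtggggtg
Ccng1: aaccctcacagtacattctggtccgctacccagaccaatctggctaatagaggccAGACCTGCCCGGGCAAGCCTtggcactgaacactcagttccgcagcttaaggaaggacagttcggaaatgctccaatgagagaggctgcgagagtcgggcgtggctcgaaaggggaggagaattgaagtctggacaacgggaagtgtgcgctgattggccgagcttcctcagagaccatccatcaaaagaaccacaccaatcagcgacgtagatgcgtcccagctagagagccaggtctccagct
Bax: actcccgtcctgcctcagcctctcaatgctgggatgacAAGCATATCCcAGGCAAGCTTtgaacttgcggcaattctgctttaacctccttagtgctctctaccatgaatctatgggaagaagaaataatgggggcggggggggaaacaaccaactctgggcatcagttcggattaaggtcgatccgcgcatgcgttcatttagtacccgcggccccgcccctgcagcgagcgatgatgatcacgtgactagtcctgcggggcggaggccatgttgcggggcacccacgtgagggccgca

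Library totals lay between 18280008 and 28596919 counts. Kmt2a, the gene that carries the cassette, was at 166, 166 and 167 CPM (counts scaled to a common library size, with TMM factors) in the Kmt2a+/LSL libraries and at 259 to 310.0 CPM in the other 9, without overlap. Kmt2a+/+ replicate 1 stood apart: its median correlation of log2 CPM with the other libraries was 0.918, against 0.969 in Nes-Cre+/- Kmt2a+/LSL replicate 1 and 0.973 to 0.982 in the other 10. In both of these libraries more counts came from mitochondrial genes (12.7% and 10.3%, against 3.96 to 6.88%), and genes rich in GC were low and genes poor in GC high (correlation of a gene's deviation with its GC content over 11676 genes, -0.667 and -0.475). Kmt2a+/+ replicate 3 leaned the other way (0.575), and Kmt2a+/+ replicate 2 did so weakly (0.186). In Kmt2a+/LSL the correlation was -0.276, -0.371 and 0.165 for replicates 1, 2 and 3. Fold changes are therefore given with all 12 libraries. For the comparisons described most closely they are also given without Kmt2a+/+ replicate 1 and Nes-Cre+/- Kmt2a+/LSL replicate 1. Kmt2a+/+ replicate 3 stayed in the other 10 libraries, so values against Kmt2a+/+ there still hold its lean. Markers of neural progenitors summed to 5537 to 12933 CPM, the highest in Kmt2a+/+ replicate 1, and all 9 were at 1 CPM or more in the other 10 libraries. That sum came mostly from Fabp7 (8959.9 CPM there, 2430.1 to 4932 CPM elsewhere), whereas Hes5 (2.14 against 45.8 to 159.5 CPM) and Sox2 (226 against 232.5 to 387 CPM) were lowest in the same library. Glial markers were present as well, with sums of 951 to 2929 CPM for 5 astrocyte genes and 1199 to 5559.7 CPM for 7 genes of the oligodendrocyte lineage, both lowest in Kmt2a+/+ replicate 1. Neuronal markers summed to 1016 to 1917 CPM, most of it Map2, with Stmn2 and Neurod1 near 0. Of the microglial list 4 of 8 genes had no row among the tested genes and the sum stayed at or under 2.08 CPM, the fibroblast list stayed at or under 4.45 CPM and the vascular list at or under 12.1 CPM.

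Per kilobase of exon, which allows levels to be compared between genes, Ccng1 was the most abundant member with a median of 119 CPM per kb over the 12 libraries. Bax followed at 64.9, Cdkn2a at 34.0, Cdkn1a at 32.6, Cdkn2c at 26.3, Cdkn1b at 21.7, Trp53 at 18.4, Mdm2 at 12.3 and Cdkn2b at 7.27 CPM per kb. Cdkn2d, at 0.421 CPM per kb, was close to the lower limit of the data. The ranges of neighbours in this order overlapped, except that of Cdkn2d with that of Cdkn2b.

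**Figure D1:**
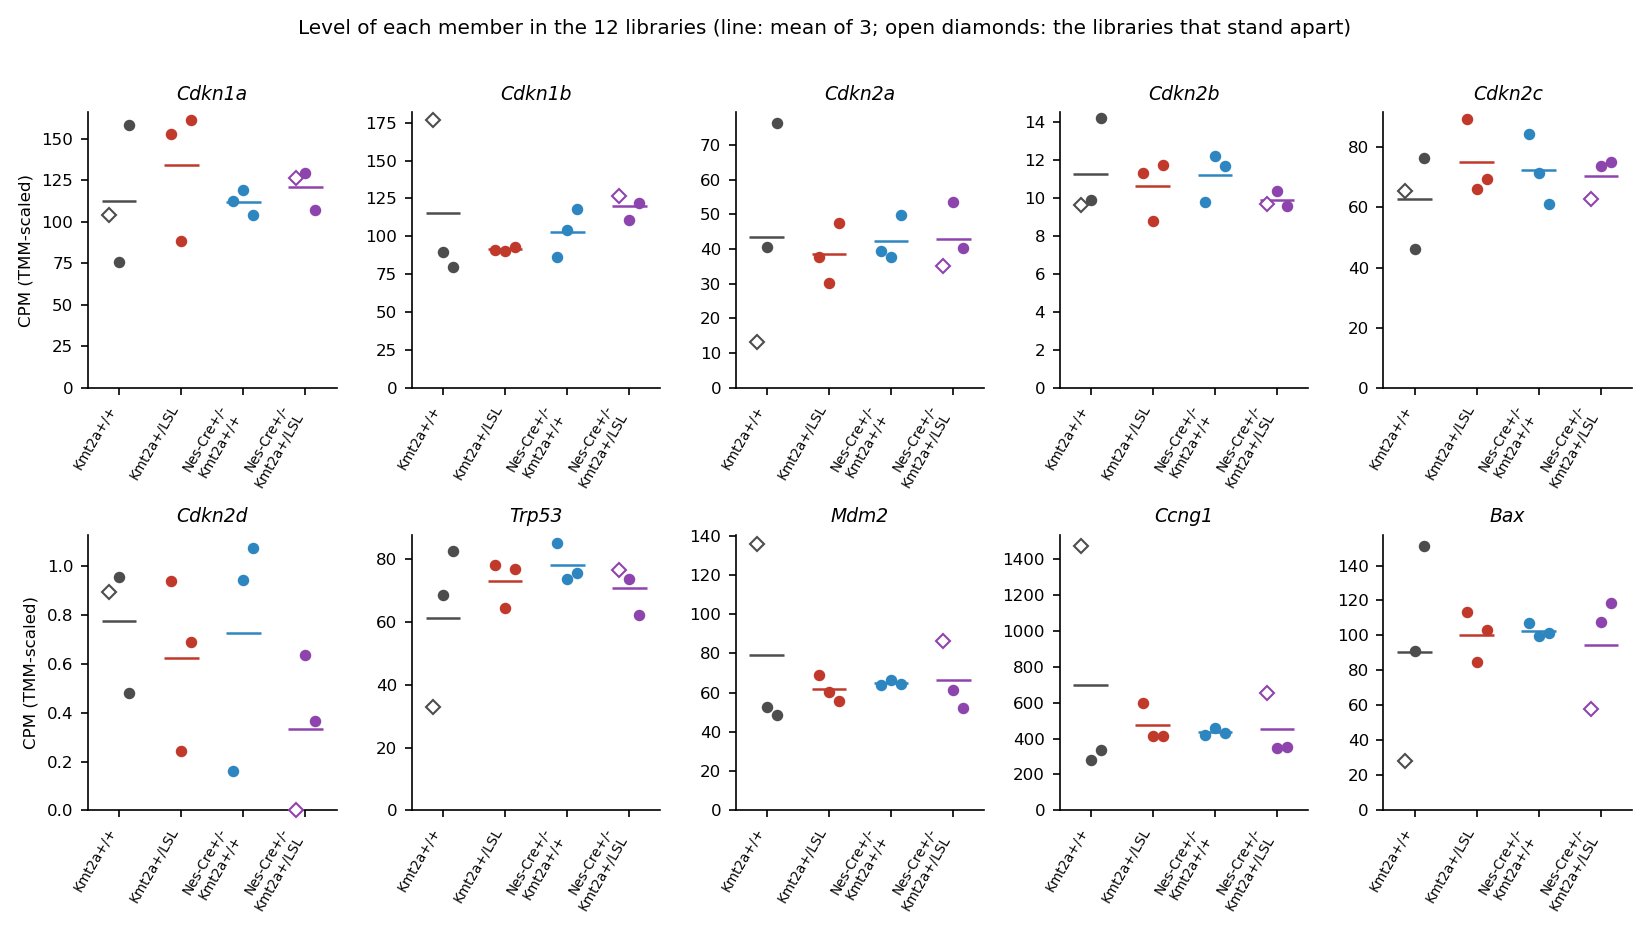
Level of each member in TMM-scaled CPM (y axis, from 0, a scale of its own in each panel) in the 3 libraries of each of 4 genotypes (x axis); points are libraries, lines their means, and open diamonds mark Kmt2a+/+ replicate 1 and Nes-Cre+/- Kmt2a+/LSL replicate 1. Kmt2a+/+ replicate 1 holds the highest value of Ccng1 (1473 CPM), Mdm2 (136 CPM) and Cdkn1b (177 CPM) and the lowest of Bax (28.4 CPM), Trp53 (33.0 CPM) and Cdkn2a (13.3 CPM).

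No member was called in any comparison. With edgeR's quasi-likelihood test and a Benjamini-Hochberg adjusted p under 0.05, 0 of 10 members passed in Kmt2a+/LSL against Kmt2a+/+, in Nes-Cre+/- Kmt2a+/LSL against Kmt2a+/LSL, in Nes-Cre+/- Kmt2a+/+ against Kmt2a+/+, in Nes-Cre+/- Kmt2a+/LSL against Nes-Cre+/- Kmt2a+/+, in the difference between the LSL effects with and without nestin-Cre, and in the test over all 4 genotypes, where the background was 0% of 17076 genes each time. At an unadjusted p under 0.05 edgeR passed 0 members in each, beside 1.79%, 1.61%, 1.4%, 1.11%, 1.73% and 1.15% of all genes in the same order. An exact permutation test over the 12 libraries also passed 0 members in the test over the 4 genotypes, beside 2.07% of genes at an unadjusted p under 0.05. DESeq2 called 7, 7, 3, 3, 10 and 5 genes in the same order and limma-voom 2, 2, 0, 0, 0 and 3, none of them a member. DESeq2 z-scores rescaled to an empirical null, a step close to the one in the study's methods, called 32, 945, 7, 261 and 17 genes in the first 5 (0.187%, 5.53%, 0.041%, 1.53% and 0.0996% of 17076) and again 0 members. With 3 libraries against 3 the exact permutation test of a single gene cannot go below p = 0.1, so it cannot pass 0.05. By edgeR with all 12 libraries, Kmt2a itself was not called in Kmt2a+/LSL against Kmt2a+/+ (log2 fold change -0.80, SE 0.12, adjusted p = 0.281). A lack of calls among the members therefore does not show a lack of change.

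Cdkn1a (chr17:29090976-29100727), which encodes p21, the main arrest protein made under p53, varied as much within genotypes as between them. Its level was 104, 75.5 and 158 CPM in Kmt2a+/+, 153, 88.4 and 161 CPM in Kmt2a+/LSL, 113, 119 and 104 CPM in Nes-Cre+/- Kmt2a+/+ and 126, 129 and 107 CPM in Nes-Cre+/- Kmt2a+/LSL. The libraries without nestin-Cre spread over a 2.14-fold range that enclosed those with it, and all 4 genotypes overlapped. Kmt2a+/LSL against Kmt2a+/+ gave a log2 fold change of 0.25 (SE 0.28, 95% interval -0.39 to 0.89, edgeR unadjusted p = 0.379), which leaves room for a rise of up to 0.89 or a fall of up to 0.39 on the log2 scale. Without both apart libraries it was 0.19 (SE 0.30). Single libraries moved it further, to 0.0344 without Kmt2a+/+ replicate 2 and 0.0992 without Kmt2a+/LSL replicate 3, and to 0.58 (SE 0.25, edgeR unadjusted p = 0.0468, adjusted p = 0.683) without Kmt2a+/+ replicate 3. It was 0.46 without Kmt2a+/LSL replicate 2, 0.15 without Kmt2a+/LSL replicate 1 and 0.0547 with an offset for GC content and length. Nestin-Cre with the cassette gave -0.15 (SE 0.28) against Kmt2a+/LSL, and -0.20 (SE 0.30) in the 10 libraries.

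Cdkn1b (chr6:134920401-134925513), which encodes p27, was the 1 member whose libraries separated between genotypes. It was at 90.9, 90.4 and 93.0 CPM in Kmt2a+/LSL and at 127, 111 and 122 CPM in Nes-Cre+/- Kmt2a+/LSL, so that every library with Cre lay above every one without it. Such separation was seen in 1 of 10 members in that comparison and in 7.1% of all genes. The control genotypes, with 177, 89.4 and 80.1 CPM in Kmt2a+/+ and 86.4, 104 and 118 CPM in Nes-Cre+/- Kmt2a+/+, had libraries on both sides of the gap. The log2 fold change of Nes-Cre+/- Kmt2a+/LSL against Kmt2a+/LSL was 0.39 (SE 0.26, edgeR unadjusted p = 0.165, adjusted p = 1). It was 0.33 (SE 0.12, edgeR unadjusted p = 0.0225, adjusted p = 0.913) without both apart libraries, and the adjusted p over all alternatives was between 0.0795, for DESeq2 z-scores rescaled to an empirical null, and 1. Nestin-Cre on a Kmt2a+/+ background gave a log2 fold change of -0.17 (SE 0.26) with all libraries and 0.28 (SE 0.12, edgeR unadjusted p = 0.0502) without the 2, and against Nes-Cre+/- Kmt2a+/+ the Nes-Cre+/- Kmt2a+/LSL libraries were 0.22 higher on the log2 scale (SE 0.26), and 0.16 (SE 0.12) without the 2, with overlap. Leaving out single libraries moved this last difference between 0.11 and 0.33. In the other 3 comparisons no member separated, beside 4.05% of genes in Kmt2a+/LSL against Kmt2a+/+, 4.35% in Nes-Cre+/- Kmt2a+/+ against Kmt2a+/+ and 6.68% in Nes-Cre+/- Kmt2a+/LSL against Nes-Cre+/- Kmt2a+/+.

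Cdkn2a (chr4:89274471-89294653) yields p16INK4a and ARF from different first exons, and the deposited counts do not separate them. It was at 13.3, 40.5 and 76.2 CPM in Kmt2a+/+, 37.7, 30.2 and 47.5 CPM in Kmt2a+/LSL, 39.4, 37.7 and 49.9 CPM in Nes-Cre+/- Kmt2a+/+ and 35.1, 53.6 and 40.3 CPM in Nes-Cre+/- Kmt2a+/LSL. The Kmt2a+/+ libraries held both the lowest and the highest value, and those of the other genotypes lay between. Relative to Kmt2a+/+, the Kmt2a+/LSL libraries differed by a log2 fold change of -0.17 (SE 0.46, edgeR unadjusted p = 0.713) and, without both apart libraries, -0.61 (SE 0.27, edgeR unadjusted p = 0.0481, adjusted p = 0.338). Without Kmt2a+/+ replicate 3, the other end of its range, it was 0.51.

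Cdkn2b (chr4:89306299-89311039), the neighbour of Cdkn2a on chromosome 4 and the source of p15INK4b, was low and even, between 8.77 and 14.2 CPM in all 12 libraries. The genotype means were 11.2 ± 2.58 CPM (SD, n = 3) in Kmt2a+/+, 10.6 ± 1.59 CPM in Kmt2a+/LSL and, with nestin-Cre, 11.2 ± 1.28 CPM on Kmt2a+/+ and 9.86 ± 0.418 CPM on Kmt2a+/LSL. Cdkn2c (chr4:109660876-109667189), the source of p18INK4c, was at 65.4, 46.2 and 76.5 CPM in Kmt2a+/+, 89.5, 66.1 and 69.6 CPM in Kmt2a+/LSL, 84.5, 71.4 and 61.3 CPM in Nes-Cre+/- Kmt2a+/+ and 62.7, 73.7 and 75.1 CPM in Nes-Cre+/- Kmt2a+/LSL, with all genotypes overlapping. Between Kmt2a+/LSL and Kmt2a+/+ its log2 fold change was 0.26 (SE 0.21, 95% interval -0.24 to 0.75), and 0.29 (SE 0.22) without both apart libraries. It ranged from 0.0799 without Kmt2a+/+ replicate 2 and 0.11 without Kmt2a+/LSL replicate 1 to 0.43 without Kmt2a+/+ replicate 3, and was 0.15 with an offset for GC content and length. Cdkn2d (chr9:21288410-21291407), the source of p19INK4d, had 0 to 27 counts per library, at most 1.07 CPM. Nes-Cre+/- Kmt2a+/LSL replicate 1 had 0 counts, which allows up to 0.149 CPM (3 counts, counting error only), and libraries of 1 genotype could be far apart (4, 22 and 27 counts in Nes-Cre+/- Kmt2a+/+). The interval of the Kmt2a+/LSL against Kmt2a+/+ contrast, on the log2 scale, ran from -2.42 to 1.81.

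Trp53 (chr11:69580359-69591873), which encodes p53, was even except in 1 library. It was at 33.0, 68.5 and 82.5 CPM in Kmt2a+/+, 78.0, 64.5 and 76.7 CPM in Kmt2a+/LSL, 85.0, 73.5 and 75.6 CPM in Nes-Cre+/- Kmt2a+/+ and 76.6, 73.6 and 62.3 CPM in Nes-Cre+/- Kmt2a+/LSL. The 10 libraries that did not stand apart spanned only a 1.36-fold range, the narrowest of the members. Set against Kmt2a+/+, Kmt2a+/LSL libraries gave a log2 fold change of 0.25 (SE 0.27) with Kmt2a+/+ replicate 1 and -0.05 (SE 0.14) without both apart libraries. p53 is controlled chiefly through the stability of its protein, which was not measured.

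Mdm2 (chr10:117688875-117710758), the ligase that marks p53 for destruction, was at 136, 52.6 and 48.5 CPM in Kmt2a+/+, 69.1, 60.4 and 55.9 CPM in Kmt2a+/LSL, 64.0, 66.6 and 64.6 CPM in Nes-Cre+/- Kmt2a+/+ and 86.1, 61.2 and 52.2 CPM in Nes-Cre+/- Kmt2a+/LSL. Both apart libraries were the highest of the 12. Kmt2a+/LSL against Kmt2a+/+ gave a log2 fold change of -0.35 (SE 0.35, edgeR unadjusted p = 0.331) with all libraries and 0.29 (SE 0.12, edgeR unadjusted p = 0.0364, adjusted p = 0.312) without both, so the direction turned on the library left out. Nes-Cre+/- Kmt2a+/+ against Kmt2a+/+ turned in the same way, from -0.28 (SE 0.35) to 0.36 (SE 0.12, edgeR unadjusted p = 0.014, adjusted p = 0.398).

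Ccng1 (chr11:40748552-40755311), which encodes cyclin G1 and is a well-known target of p53, was high in both apart libraries. It was at 1473, 281 and 336 CPM in Kmt2a+/+, 596, 416 and 415 CPM in Kmt2a+/LSL, 420.5, 460.0 and 433 CPM in Nes-Cre+/- Kmt2a+/+ and 655, 346 and 353 CPM in Nes-Cre+/- Kmt2a+/LSL. Kmt2a+/+ replicate 1 was 4.39-fold above the next Kmt2a+/+ library, and without the 2 apart libraries the genotypes fell in the order Kmt2a+/+ (308 ± 39.0 CPM, SD, n = 2), Nes-Cre+/- Kmt2a+/LSL (349 ± 5.00 CPM, SD, n = 2), Nes-Cre+/- Kmt2a+/+ (438 ± 20.2 CPM, SD, n = 3) and Kmt2a+/LSL (476 ± 104 CPM, SD, n = 3). Relative to Kmt2a+/+, the Kmt2a+/LSL libraries differed by a log2 fold change of -0.55 (SE 0.53, edgeR unadjusted p = 0.321) with all libraries and 0.63 (SE 0.16, edgeR unadjusted p = 0.00358, adjusted p = 0.22) without both. Nes-Cre+/- Kmt2a+/LSL against Kmt2a+/LSL went from -0.08 (SE 0.53) to -0.47 (SE 0.16, edgeR unadjusted p = 0.018, adjusted p = 0.913), and Nes-Cre+/- Kmt2a+/+ against Kmt2a+/+ from -0.67 (SE 0.53) to 0.50 (SE 0.16, edgeR unadjusted p = 0.0127, adjusted p = 0.398). These comparisons share genotypes, so they are not independent of each other. The difference between the LSL effects with and without nestin-Cre was 0.59 (SE 0.75) and then -0.97 (SE 0.23, edgeR unadjusted p = 0.00199, adjusted p = 0.38).

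Bax (chr7:45461697-45466898), which encodes a pore-forming protein of mitochondrial apoptosis, stood opposite to Ccng1 in the apart libraries. It was at 28.4, 91.1 and 151 CPM in Kmt2a+/+, 113, 84.8 and 103 CPM in Kmt2a+/LSL, 107, 99.5 and 102 CPM in Nes-Cre+/- Kmt2a+/+ and 58.2, 108 and 118 CPM in Nes-Cre+/- Kmt2a+/LSL. The lowest values of the 12 were those of Kmt2a+/+ replicate 1 and Nes-Cre+/- Kmt2a+/LSL replicate 1, and the highest that of Kmt2a+/+ replicate 3. Set against Kmt2a+/+, Kmt2a+/LSL libraries gave a log2 fold change of 0.15 (SE 0.46) and, without both apart libraries, -0.28 (SE 0.19, edgeR unadjusted p = 0.184).

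In the 10 libraries, an unadjusted p under 0.05 in edgeR was reached by 3 members (Cdkn2a, Mdm2 and Ccng1) and 14.6% of all genes in Kmt2a+/LSL against Kmt2a+/+, by 2 members (Cdkn1b and Ccng1) and 5.17% in Nes-Cre+/- Kmt2a+/LSL against Kmt2a+/LSL, and by 2 members (Mdm2 and Ccng1) and 11.2% in Nes-Cre+/- Kmt2a+/+ against Kmt2a+/+. Nes-Cre+/- Kmt2a+/LSL against Nes-Cre+/- Kmt2a+/+ gave 0 members and 3.52% of genes, the difference of LSL effects 2 members (Mdm2 and Ccng1) and 11.4%, and the test over 4 genotypes 2 members (Cdkn1b and Ccng1) and 7.84%. No adjusted p of a member fell under 0.22 there. Non-overlapping libraries were seen for 3 members and 29% of genes, 2 members and 18.8%, 2 members and 29.6%, and 3 members and 19% in the 4 pairwise comparisons in that order. With 2 libraries left in each of 2 genotypes, separation is common over the whole transcriptome, and the members' shares were read against it.

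**Figure D2:**
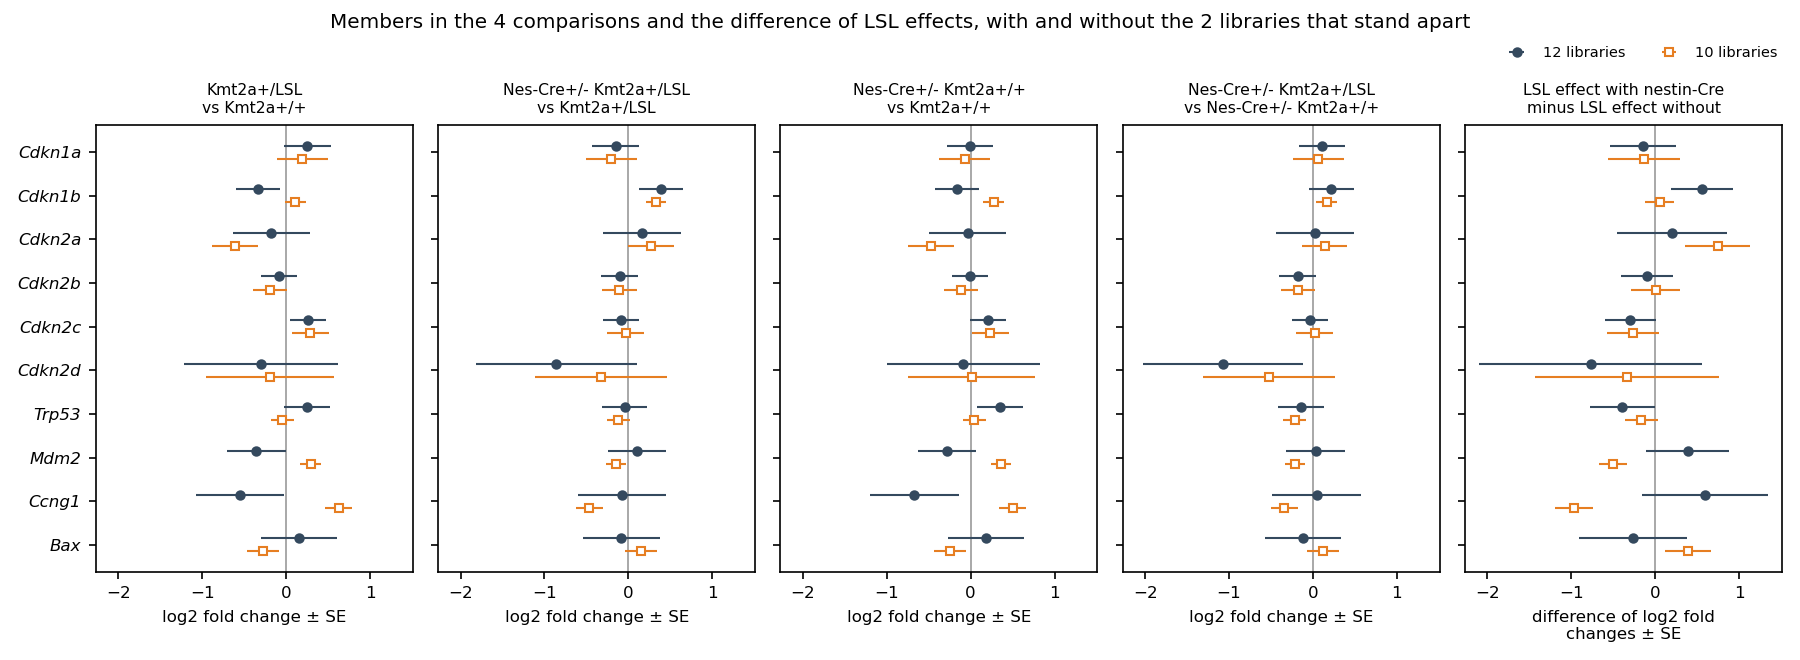
Log2 fold change of each member with its standard error (x axis) in the 4 pairwise comparisons and, in the last panel, the difference of the LSL effects, from all 12 libraries (filled circles) and without both apart libraries (open squares). The Ccng1 estimate moves from -0.55 to 0.63 in the first panel and from 0.59 to -0.97 in the last, and the errors of Mdm2, Ccng1 and Bax shrink.

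The members that stood high or low in the 2 apart libraries sorted by GC content. In Kmt2a+/+ replicate 1, relative to the median of the 10 libraries, Ccng1 (37.4% GC in its transcripts) was 3.54-fold, Mdm2 (50.1%) 2.23-fold and Cdkn1b (44.1%) 1.92-fold, whereas Trp53 (54.5%) was at 0.443-fold, Cdkn2a (59.0%) at 0.331-fold and Bax (58.4%) at 0.271-fold. Over 9 members, Cdkn2d left out, the correlation of this deviation with GC content was -0.895, and -0.811 in Nes-Cre+/- Kmt2a+/LSL replicate 1, as a description over genes that share those libraries. Over all genes too, values in that library fell with GC content. The median deviation in Kmt2a+/+ replicate 1 was 1.04 on the log2 scale among 295 genes of 36 to 40% GC and -1.61 among 1834 genes of 56 to 60% GC, and Bax (-1.88) and Cdkn2a (-1.59) lay within the quartiles of that second class, -2.19 to -1.01. Trp53 (-1.18) lay within the quartiles of its class as well (-1.30 to -0.25).

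Mdm2 and Ccng1 stood above genes of like GC content in that library. Mdm2 deviated by 1.16 against quartiles of -0.42 to 0.45 at 48 to 52% GC, and Ccng1 by 1.83 against 0.76 to 1.38 at 36 to 40%. Cdkn1b (0.94), Cdkn1a (-0.16) and Cdkn2b (-0.16) were also above the upper quartile of their classes, 0.87, -0.25 and -0.25. With an offset for GC content and length in the fit, the deviation was 1.26 for Mdm2, 1.11 for Cdkn2b, 0.58 for Ccng1, 0.52 for Cdkn1a, 0.27 for Cdkn1b and -0.05 for Bax, and Kmt2a+/LSL against Kmt2a+/+ gave -0.17 (SE 0.20) for Ccng1 and -0.43 (SE 0.35) for Mdm2. The part of GC content in the genotype comparisons beyond this offset was not tested.

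**Figure D3:**
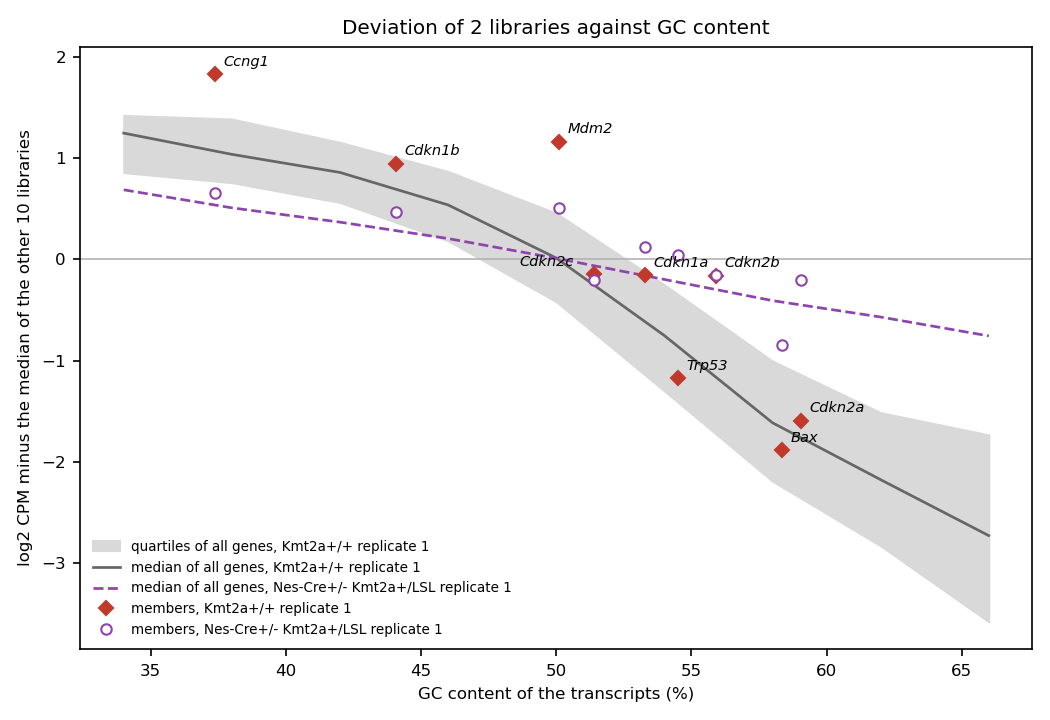
Log2 CPM in Kmt2a+/+ replicate 1 and Nes-Cre+/- Kmt2a+/LSL replicate 1 minus the median of the other 10 libraries (y axis) against GC content of the transcripts in percent (x axis), for 9 members (red diamonds and open violet circles) with the median (lines) and quartiles (grey band, first library) of all genes in classes of 4 percentage points. Members follow the downward slope, and Mdm2 (1.16), Ccng1 (1.83) and Cdkn2b (-0.16) lie above the grey band.

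Among the members, the closest pair over the 12 libraries was Mdm2 and Ccng1 (Pearson r of log2 CPM 0.964, and 0.798 in the 10 libraries), whereas Mdm2 and Bax ran against each other (-0.922, and -0.41 in the 10). Both correlations are descriptions, since the points share libraries and the library that stands apart sets much of their spread. Cdkn1a, the classic p53 target, followed Ccng1 less closely (0.071, and 0.425 in the 10 libraries) and its correlation with Mdm2 was near 0 (-0.083 and 0.049), while with Trp53 it was 0.373 (0.612 in the 10) and with Bax 0.323 (0.672). Of 11668 genes with a mean of at least 50 normalized counts, those most like Mdm2 over the 12 libraries were Cspp1 (r = 0.992) and Fam8a1 (0.99), and those most like Ccng1 were Itga1 (0.985) and Spata6 (0.984). Bax was most like Mif (0.991) and Cdk16 (0.989), Trp53 like Tubgcp6 (0.985) and Dalrd3 (0.979), Cdkn2a like Lin37 (0.972) and Kdm4a (0.972), and Cdkn1b like Crebbp (0.959) and Tmem126b (0.957). Cdkn2c was most like Kif22 (0.957) and Plk1 (0.943), both of them genes of mitosis. In the 10 libraries these values were 0.987 and 0.95. Those of all other pairs of a member and its nearest genes lay between 0.853 (Trp53 and Dalrd3) and 0.978 (Mdm2 and Cspp1). Cdkn1a was most like Klhdc7a (0.953) and Xkr5 (0.932) and Cdkn2b like Stk19 (0.889) and Cpne2 (0.87).

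The wider pathway gave no call either: in 6 lists (controllers of the Cip/Kip and INK4 genes, G1 cyclins with CDKs and the RB-E2F genes, p53 regulators, other p53 targets, BCL2-family and apoptosis genes, and proliferation genes), 0 genes passed in any comparison by edgeR's adjusted p with all libraries, and without both apart libraries only Kmt2a did. Of 36 other p53 targets, 20 were higher and 16 lower in Kmt2a+/LSL than in Kmt2a+/+, with a median log2 fold change of 0.09 against 0.00 over all genes. In Nes-Cre+/- Kmt2a+/LSL against Kmt2a+/LSL 14 were higher and 22 lower (median -0.06, all genes 0.00). Pmaip1, which encodes the death protein NOXA, had the lowest p of this list over the 4 genotypes (edgeR unadjusted p = 0.016, adjusted p = 1). It was at 4.10, 7.67 and 7.59 CPM in Kmt2a+/+, 16.3, 11.9 and 12.5 CPM in Kmt2a+/LSL, 9.43, 11.2 and 11.9 CPM in Nes-Cre+/- Kmt2a+/+ and 17.5, 10.1 and 12.2 CPM in Nes-Cre+/- Kmt2a+/LSL, every library of the other 3 genotypes above every Kmt2a+/+ library, as in 0.281% of all genes. Since this gene was picked for its low p, the separation is a description. Rps27l, a ribosomal-protein-like p53 target, was at 556 CPM in Kmt2a+/+ replicate 1 and at 65.2 to 147 CPM elsewhere, and Tigar, which slows glycolysis, at 8.34 to 17.1 CPM.

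Of 20 p53 regulators, 17 were lower in Kmt2a+/LSL than in Kmt2a+/+ (median -0.10) and 19 lower in Nes-Cre+/- Kmt2a+/+ than in Kmt2a+/+ (median -0.20). Without both apart libraries the medians were 0.04 and 0.03, and 0 of the 20 passed edgeR's adjusted p with or without them. In Kmt2a+/+ replicate 1 alone, 15 of these 20 were above the median of the other libraries, beside 46.4% of 11676 genes, 83.3% of the proliferation list and 33.3% of the BCL2-family and apoptosis list. Among the 15 were Crebbp, an acetyltransferase (96.7 CPM against 50.5 to 82.2 in the other 11), and Rchy1, a ubiquitin ligase (107 against 48.1 to 78.9). The BCL2-family and apoptosis list gave 10 higher and 8 lower of 18 in Kmt2a+/LSL against Kmt2a+/+ (median 0.08). Cycs, which encodes cytochrome c, was at 322 CPM in Kmt2a+/+ replicate 1 and at 54.2 to 121 CPM in the other 11.

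Of 24 proliferation genes, 10 were higher and 14 lower in Kmt2a+/LSL than in Kmt2a+/+, with a median log2 fold change of -0.05 that became 0.48 without both apart libraries, and 4 were higher and 20 lower in Nes-Cre+/- Kmt2a+/LSL than in Kmt2a+/LSL (median -0.13, then -0.25). Against Nes-Cre+/- Kmt2a+/+ the counts ran the other way, and 20 were higher and 4 lower in Nes-Cre+/- Kmt2a+/LSL (median 0.10, then -0.01). In Nes-Cre+/- Kmt2a+/+ 6 were higher and 18 lower than in Kmt2a+/+ (median -0.28, then 0.26). Mki67, a marker of dividing cells, was at 1429, 206 and 484 CPM in Kmt2a+/+, 707, 437 and 451 CPM in Kmt2a+/LSL, 555, 444 and 342 CPM in Nes-Cre+/- Kmt2a+/+ and 573, 450.4 and 598 CPM in Nes-Cre+/- Kmt2a+/LSL, so that the Kmt2a+/+ libraries alone held both the lowest and the highest value. Mcm4, a helicase subunit of replication, had the same shape, 192, 45.8 and 87.3 CPM in Kmt2a+/+ against 51.4 to 114 CPM in the other genotypes. Mcm5, a further helicase subunit, did not: it was at 9.76, 5.57 and 14.7 CPM in Kmt2a+/+ and at 6.79 to 18.01 CPM in the others, highest in Nes-Cre+/- Kmt2a+/LSL replicate 3. Among 16 G1 cyclins, CDKs and RB-E2F genes 8 were higher and 8 lower in Kmt2a+/LSL (median 0.00, and 0.25 without both apart libraries), and Cdk2 was at 24.97 to 46.1 CPM and Cdk6, a kinase that INK4 proteins bind, at 21.2 to 48.1 CPM over all libraries. Of 23 controllers of the inhibitor genes, 9 were higher and 14 lower (median -0.17, and 0.02 without both libraries), and Kmt2a itself was the 1 at an unadjusted p under 0.05, with a log2 fold change of -0.80 (SE 0.12, edgeR adjusted p = 0.281, and 0.046 without both apart libraries). Cdkn1c, the third Cip/Kip gene, was at 4.69 to 13.8 CPM.

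**Figure D4:**
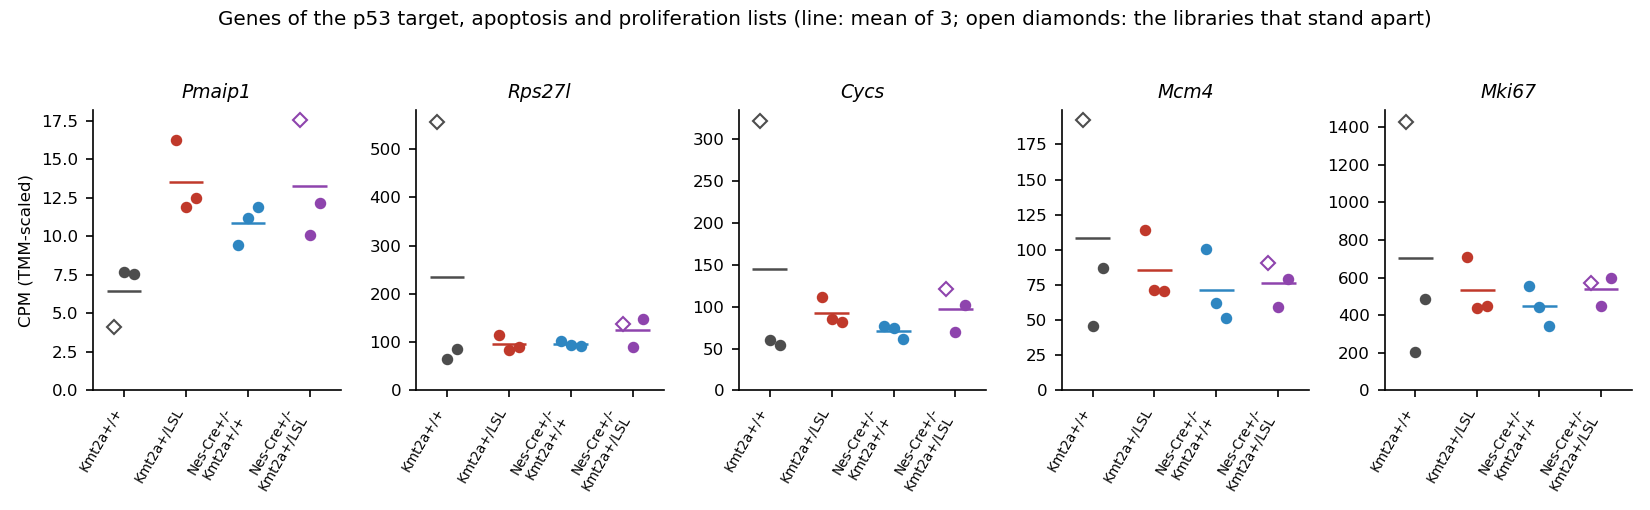
TMM-scaled CPM (y axis, from 0) of 5 genes from the p53 target, apoptosis and proliferation lists in the 3 libraries of each of 4 genotypes (x axis); points are libraries, lines their means, and open diamonds the apart libraries. Kmt2a+/+ replicate 1 is far above the other libraries for Rps27l (556 CPM), Cycs (322 CPM) and Mki67 (1429 CPM) and lowest for Pmaip1 (4.10 CPM).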

How the data were processed

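Poly(A)-selected RNA from cultured NPCs was sequenced, 3 libraries for each of 4 genotypes, all 12 used. Per the study's methods the authors pseudoaligned reads with kallisto 0.48.0 to the GRCm38 (mm10) transcriptome and imported them to genes with tximport. Each deposited value is a gene's estimated count, a whole number without normalization. The design had assumed plain counts, and the same test was run on these whole-number estimates. Strand of the library kit is not given in the sources used here.

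R 4.3.3, edgeR 4.0.16, limma 3.58.1 and DESeq2 1.42.0 were used. A gene was tested if its total exceeded 10 and if it was detected in 2 libraries or more (17076 passed and 1835 did not). TMM-scaled counts were fitted with edgeR's quasi-likelihood model, genotype as the only term, and tested two-sided with Benjamini-Hochberg adjustment over all genes. The functions were first tested on simulated counts with known changes and no library that stood apart, so that test does not measure power in these libraries. log2 CPM used a prior count of 2. The 95% intervals used the SE and a t distribution with 8 residual degrees of freedom. The edgeR test has a reference of its own, so intervals and p-values need not match exactly. Identifiers were matched to GENCODE, and 18735 of 18911 gave a symbol. GC content and length are means over a gene's annotated transcripts.

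Named genes are the members, Kmt2a, the 3 genes of each list with the lowest p over 4 genotypes and the 2 genes most like each member, and 1 of these is not reported here. The members and lists were chosen with earlier results of these data known. Removal of the 2 apart libraries, the GC offset and a newer edgeR setting were chosen after seeing the data.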

Additional observations from a re-analysis of the deposited data

How the results depend on the processing

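No member was called under any of 26 alternatives (other scaling, tests, filters, samples in the fit, offsets, and each library left out) in the comparisons each was run on, and the lowest adjusted p of a member was 0.0795. The exact permutation test covered only the test over 4 genotypes, the empirical null only the other 5 and the fits of the 2 compared genotypes alone only the 4 pairwise comparisons, and a planned edgeR setting that equalled the default is not counted. Signs were less stable: of 50 member fold changes (log2, as are all values here), 34 had the other sign under at least 1 alternative, and 102 of 1185 alternative values did. The cause was not tested. Without both apart libraries 20 turned: in Kmt2a+/LSL against Kmt2a+/+ Cdkn1b (0.11), Trp53 (-0.0481), Mdm2 (0.29), Ccng1 (0.63) and Bax (-0.28), in Nes-Cre+/- Kmt2a+/LSL against Kmt2a+/LSL Mdm2 (-0.14) and Bax (0.15), in Nes-Cre+/- Kmt2a+/+ against Kmt2a+/+ Cdkn1b (0.28), Cdkn2d (0.014), Mdm2 (0.36), Ccng1 (0.50) and Bax (-0.25), in Nes-Cre+/- Kmt2a+/LSL against Nes-Cre+/- Kmt2a+/+ Cdkn2c (0.022), Mdm2 (-0.21), Ccng1 (-0.34) and Bax (0.12), and in the difference of LSL effects Cdkn2b (0.00580), Mdm2 (-0.50), Ccng1 (-0.97) and Bax (0.40). limma-voom with sample weights, which gave Kmt2a+/+ replicate 1 a weight of 0.0537, turned in the same order Cdkn1b (0.0590), Mdm2 (0.24), Ccng1 (0.60) and Bax (-0.0646), then Mdm2 (-0.0109) and Bax (0.0141), then Cdkn1a (0.22), Cdkn1b (0.27), Cdkn2b (0.0529), Cdkn2d (0.00154), Mdm2 (0.32), Ccng1 (0.52) and Bax (-0.0401), then Cdkn2c (0.054), Mdm2 (-0.0955) and Ccng1 (-0.20), then Mdm2 (-0.33), Ccng1 (-0.80) and Bax (0.0542). The offset for GC content and length turned Trp53 in Nes-Cre+/- Kmt2a+/LSL against Kmt2a+/LSL (0.0302), Ccng1 in Nes-Cre+/- Kmt2a+/LSL against Nes-Cre+/- Kmt2a+/+ (-0.13), and Cdkn1a (0.11) and Cdkn2b (0.37) in the difference of LSL effects.

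Left-out single libraries turned, in Kmt2a+/LSL against Kmt2a+/+, Cdkn1b (-0.54 to 0.11), Cdkn2a (-0.61 to 0.51), Cdkn2b (-0.19 to 0.12), Cdkn2d (-0.72 to 0.0588), Trp53 (-0.0483 to 0.53), Mdm2 (-0.61 to 0.29), Ccng1 (-0.93 to 0.63) and Bax (-0.28 to 0.75), in Nes-Cre+/- Kmt2a+/LSL against Kmt2a+/LSL Cdkn1a (-0.37 to 0.00211), Cdkn2a (-0.0285 to 0.34), Cdkn2c (-0.17 to 0.056), Trp53 (-0.12 to 0.039), Mdm2 (-0.12 to 0.25), Ccng1 (-0.45 to 0.12) and Bax (-0.27 to 0.17), in Nes-Cre+/- Kmt2a+/+ against Kmt2a+/+ Cdkn1a (-0.23 to 0.32), Cdkn1b (-0.37 to 0.27), Cdkn2a (-0.47 to 0.65), Cdkn2b (-0.11 to 0.20), Cdkn2d (-0.48 to 0.38), Mdm2 (-0.53 to 0.36), Ccng1 (-1.05 to 0.50) and Bax (-0.25 to 0.78), in Nes-Cre+/- Kmt2a+/LSL against Nes-Cre+/- Kmt2a+/+ Cdkn2a (-0.17 to 0.16), Cdkn2c (-0.15 to 0.0873), Mdm2 (-0.20 to 0.18), Ccng1 (-0.33 to 0.20) and Bax (-0.31 to 0.14), and in the difference of LSL effects Cdkn1a (-0.47 to 0.0735), Cdkn2a (-0.49 to 0.63), Mdm2 (-0.26 to 0.64), Ccng1 (-0.58 to 0.97) and Bax (-0.86 to 0.15). Removal of Kmt2a+/+ replicate 1 alone turned 13 of the 50.

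Deviations of libraries with the same replicate number had a mean r of 0.0844 over 18 pairs (-0.0717 to 0.416), against -0.0407 over 36 pairs of different numbers. Not every pair was over 0.1 and the labels name no shared litter or batch, so no pairing was assumed, and whether one exists was not tested. With the replicate number as a block 0 members were called, and Cdkn1a (0.045), Cdkn2a (0.13) and Cdkn2b (0.0074) turned in Nes-Cre+/- Kmt2a+/+ against Kmt2a+/+ and Mdm2 (-0.0277) and Ccng1 (-0.10) in Nes-Cre+/- Kmt2a+/LSL against Nes-Cre+/- Kmt2a+/+. The block with the GC and length offset turned Trp53 in Nes-Cre+/- Kmt2a+/LSL against Kmt2a+/LSL (0.0266), Cdkn2c (0.0107), Mdm2 (-0.00938) and Ccng1 (-0.15) in Nes-Cre+/- Kmt2a+/LSL against Nes-Cre+/- Kmt2a+/+, and Cdkn1a (0.0849) and Cdkn2b (0.30) in the difference of LSL effects. At 3 libraries a genotype and a common biological coefficient of variation of 0.368, intervals of most members reach past 0.5 on the log2 scale, and Cdkn2d had at most 27 counts in a library.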
